A study of Mus musculus with 16 samples.

Results

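The interaction of ERBB2 overexpression with myocardial infarction (MI) was measured as a difference of differences. The MI effect in ERBB2-overexpressing (OE) hearts, infarcted minus sham, was compared with the MI effect in wild-type (WT) hearts, gene by gene. All 16 libraries of the series entered, 4 each from WT sham, WT MI, OE sham and OE MI hearts, and 14298 of 24421 genes were tested. A gene was tested if its normalized read count, the authors' count divided by 1 factor per library, was 10 or more in at least 4 libraries. Values were taken as log2(value + 1), so a negative interaction means that the MI effect was smaller, or more strongly downward, in OE hearts.

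Per the labels, the hearts came from adult mice about 3 months old and were taken 2 weeks after surgery. MI was made by a lasting ligation of a coronary artery, the left anterior descending, and the other hearts had a sham operation. OE and WT mice were both operated on in this way. The species, form, promoter and target cells of the overexpressed ERBB2 are not given in the sources used here, nor are sex and strain. Replicates are labelled as 4 animals a group.

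ERBB2 is a receptor tyrosine kinase that pairs with ERBB4 on cardiomyocytes to carry neuregulin signals into the ERK and AKT pathways, and it can drive cardiomyocytes to dedifferentiate and divide. After an infarct, dead muscle is replaced by scar: fibroblasts become activated, secrete fibrillar collagen and matricellular proteins such as periostin, and remodel the matrix with proteases. An interaction asks whether an OE heart answers the infarct as a WT heart does. RNA came from heart tissue and not from sorted cells, so that fewer cells of a type and less RNA per cell cannot be told apart.

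Erbb2 itself marked the genotype in each library. It stood at 259.6, 248, 245 and 259 normalized reads in WT sham and 222, 276, 204 and 307 in WT MI hearts, in the order of replicates 1 to 4. OE sham hearts held 1946, 792, 2529.9 and 1783 and OE MI hearts 793, 1105, 1808 and 2504. OE and WT hearts did not overlap, and the interaction of Erbb2 was -0.18 (SE 0.47, adjusted p = 0.936), from -0.53 to 0.10 over the alternatives. Recovered reads ran from 11939093 to 17468914 per library. Cardiomyocyte markers summed to 1227050 to 1388350 normalized reads in WT sham and 1128540 to 1219680 in WT MI hearts. They summed to 891950 to 1057610 in OE sham and 816140 to 1027010 in OE MI hearts, and their median interaction was 0.15. These sums include Nppa, with means of 28178 in WT sham, 36125 in WT MI, 200045 in OE sham and 197184 in OE MI hearts.

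Lung and thymus transcripts were present in part of the infarcted libraries. Sftpc, a surfactant gene of lung alveolar cells, had 4595, 1092 and 3815 reads in WT MI replicates 2, 3 and 4 and 3520 and 1185 in OE MI replicates 2 and 3. It had at most 6 reads in the other 11 libraries, with 3 in WT MI replicate 1 and 6 and 0 in OE MI replicates 1 and 4. Rag1, a recombinase of developing lymphocytes, had 332, 456 and 184 reads in OE MI replicates 1, 3 and 4 and at most 5 elsewhere. Lung reads were thus in MI hearts of both genotypes and thymus reads in OE MI hearts. Their part in the results was not tested beyond the values given without these libraries or with lung and thymus terms. Those terms are the mean log2 values of the lung epithelial and thymocyte markers, added to the fit. Leaving out the infarcted libraries with lung reads keeps replicate 1 as the only WT MI heart. Leaving out those with thymus reads keeps replicate 2 as the only OE MI heart, and that heart has lung reads.

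**Figure D1:**
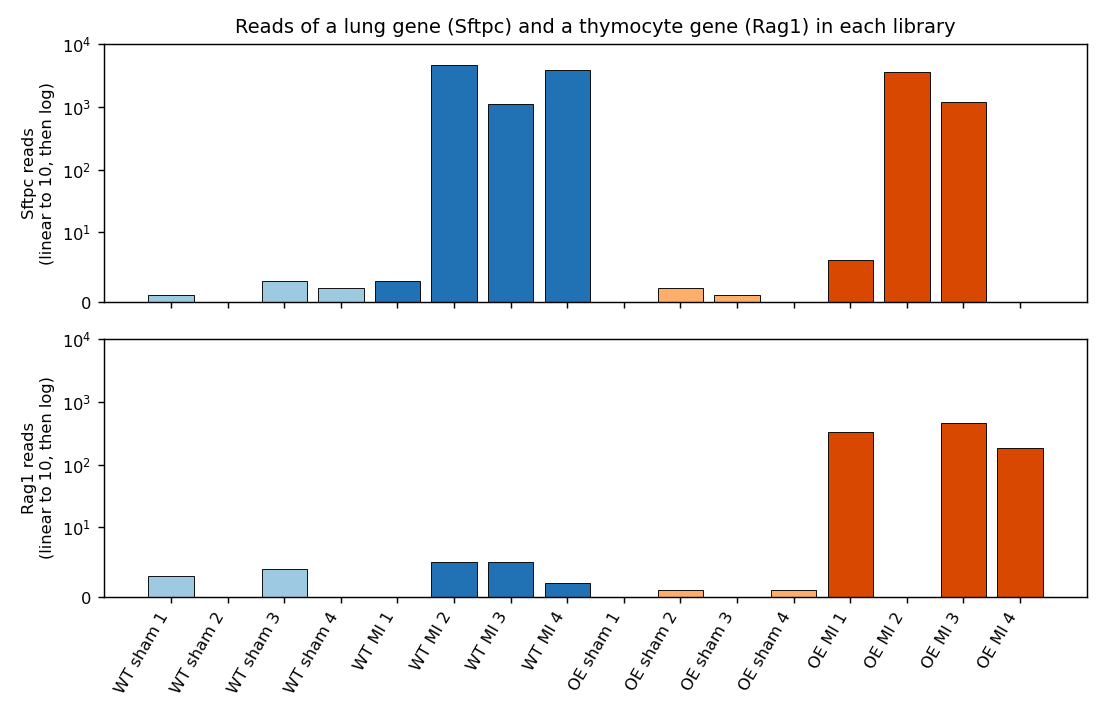
Reads of Sftpc (upper) and Rag1 (lower) in each of the 16 libraries, on an axis that is linear up to 10 reads and logarithmic above. Sftpc has from 1092 to 4595 reads in 3 WT MI and 2 OE MI libraries, and Rag1 from 184 to 456 in 3 OE MI libraries.

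Most of the genes whose answer to infarction differed between the genotypes encode secreted matrix proteins or enzymes that cut them. Of 14298 genes, 12 passed at a Benjamini-Hochberg adjusted p below 0.05 in limma (0.0839% of those tested), 11 with a negative (0.0769%) and 1 with a positive interaction (0.00699%). The 11 were Postn, Col3a1, Col5a2, Sparc, Fbln7, Mmp2, Ctsk, Adamts12, Pamr1, Eno2 and Ret, and the 1 was Ankrd63. Without adjustment, 1416 genes (9.9%) had p below 0.05, 878 negative (6.14%) and 538 positive (3.76%). The median interaction of all tested genes was 0.00617.

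With 4 animals a group the count moved with single libraries. It was 2 without WT sham replicate 2, 2 without WT sham replicate 4, 1 without OE sham replicate 1 and 1 without OE sham replicate 3. It was 5 without WT sham replicate 1 and 20 without WT sham replicate 3, and 36, 52, 3 and 5 without WT MI replicates 1, 2, 3 and 4. It was 4 and 19 without OE sham replicates 2 and 4, and 21, 15, 3 and 9 without OE MI replicates 1, 2, 3 and 4. It was 0 in the libraries with RA numbers 1 to 12, a numbering in the labels with no stated meaning. With lung and thymus terms it was 11, 9 positive and 2 negative, and Ctsk alone of the 12 was among them. The fit without the infarcted libraries with lung reads keeps 1 WT MI heart, so only effects are given, with -2.15 for Postn. The fit without those with thymus reads, a setting added after the data were seen, keeps 1 OE MI heart and gave Postn -1.59. In each of these fits all 12 genes kept their sign, and Ctsk alone passed without each single library, the other 11 reaching adjusted p values of up to 0.0956. DESeq2 on the recovered reads passed 149 genes, 123 negative and 26 positive, with the 12 among them, and edgeR passed 11 of the 12 and no other gene. Counts of list members that passed are those of limma unless another tool is named.

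**Figure D2:**
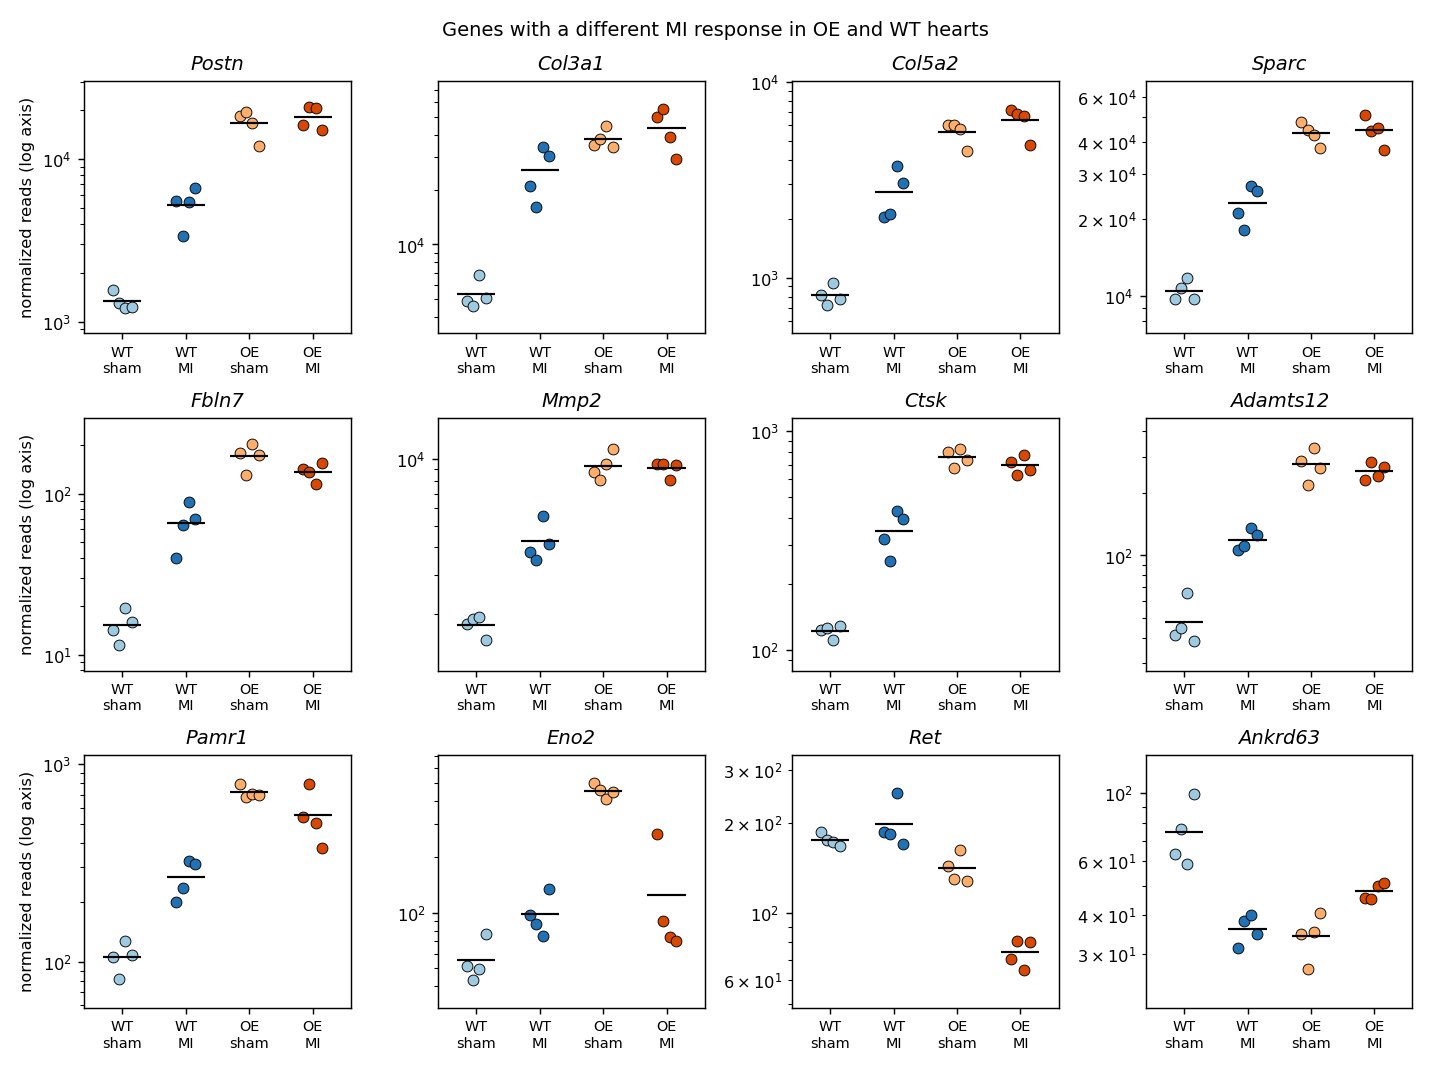
Normalized reads of the 12 genes that passed, on a logarithmic axis, in the 4 groups. Each point is 1 heart and the line is the mean of 4. In the 9 panels from Postn to Pamr1 the WT MI points lie above all WT sham points, while OE sham and OE MI points overlap.

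The fibrillar collagen transcripts Col3a1 and Col5a2 rose with infarction in WT hearts and were high in OE hearts of both surgeries. Col3a1 (chr1:45311538-45349706, GRCm38.p6), which encodes the chain of type III collagen, stood at 4934, 4609.5, 6764 and 5109.9 normalized reads in WT sham and 20998, 16115, 34393 and 30624 in WT MI hearts. It stood at 35154, 37713, 44679 and 34069 in OE sham and in OE MI hearts at 50004, 55498, 38591 and 29349.5. WT MI hearts lay above all WT sham hearts, and the OE groups overlapped. The MI effect was 2.21 in WT hearts (adjusted p = 0.000196) and 0.16 in OE hearts (adjusted p = 0.844), and the interaction -2.05 (SE 0.32, adjusted p = 0.0230).

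Col5a2 (chr1:45374331-45503282), a chain of type V collagen, which nucleates collagen fibrils, lies beside Col3a1 on the same chromosome. It stood at 814, 726, 942 and 777 in WT sham and 2045, 2098, 3725 and 3035 in WT MI hearts, and at 6031, 6005, 5746 and 4409 in OE sham and 7178, 6805, 6659.6 and 4744 in OE MI hearts. The WT groups were apart and the OE groups overlapped. MI moved Col5a2 by 1.70 in WT hearts (adjusted p = 0.000196) and 0.19 in OE hearts (adjusted p = 0.744), with an interaction of -1.51 (SE 0.26, adjusted p = 0.0290). Col1a1, the main chain of type I collagen, had the same shape without passing. Its means were 2549 ± 537 in WT sham, 10178 ± 4696 in WT MI, 19384 ± 2886 in OE sham and 20365 ± 3469.7 in OE MI hearts (mean ± SD, n = 4), with an interaction of -1.82 (SE 0.38, adjusted p = 0.0851).

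Of the list of fibrillar collagens and the enzymes that process and cross-link them, 2 of 26 tested members passed, with a negative interaction. At an unadjusted p below 0.05, 18 lower and 0 higher were found, against 6.14% and 3.76% of all genes, and 25 of 26 had a negative interaction against 6977 of all 14298 genes. The median MI effect was 1.04 in WT and 0.09 in OE hearts, and the median interaction -0.94. Without the infarcted libraries with lung reads that median was -0.56, and without those with thymus reads -0.93.

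The matricellular genes Postn and Sparc, whose secreted products shape the scar and signal to cells, showed the same order of groups. Postn (chr3:54359267-54391041) encodes periostin, the classical product of activated cardiac fibroblasts. It stood at 1573, 1299.5, 1217 and 1233 in WT sham and 5563, 3366, 5434 and 6648 in WT MI hearts, and at 18389, 19600.3, 16811 and 11998 in OE sham and 16126, 21012, 20530.5 and 15068 in OE MI hearts. Each WT MI heart lay above each WT sham heart, and no WT MI heart reached the lowest OE heart. For Postn the MI effect was 1.95 in WT hearts (adjusted p = 0.000196) and 0.13 in OE hearts (adjusted p = 0.846), and the interaction -1.81 (SE 0.27, adjusted p = 0.0220).

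If the effects of ERBB2 and of MI had added up on the log2 scale, OE MI hearts would have held 63250.1 normalized reads of Postn against a geometric mean of 17994 measured. On the unlogged scale MI added 3922 reads in WT and 1485 in OE hearts. The size of an interaction depends on this choice: with values divided by each gene's mean and not logged, all 12 genes kept their sign and only Eno2 passed (adjusted p = 0.0171). Postn then had adjusted p = 0.731 and Ctsk 0.265.

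Sparc (chr11:55394159-55420080), a collagen-binding protein needed for fibril assembly, stood at 9737, 10743, 11779 and 9759 in WT sham and 21192, 18160.2, 27013 and 25723 in WT MI hearts. OE sham hearts held 47691, 44514, 42700.5 and 37821 and OE MI hearts 50818, 43936, 45204 and 37231. The WT groups were apart, and all OE hearts lay above them and overlapped each other. The interaction was -1.09 (SE 0.18, adjusted p = 0.0290). Fbln7 (chr2:128863865-128897034), a fibulin of the extracellular matrix, was scarce in WT sham hearts, at 14.2, 11.5, 19.5 and 16.04, and reached 39.8, 63.6, 89.2 and 69.5 in WT MI hearts. In OE sham hearts it stood at 179, 131, 205 and 175 and in OE MI hearts at 143, 136, 116 and 155. OE hearts lay above all WT hearts, with OE sham and OE MI overlapping, and the interaction was -2.31 (SE 0.31, adjusted p = 0.0132).

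Of the matricellular and provisional matrix list, 2 of 28 tested members passed, with a negative interaction. The median MI effect was 0.97 in WT and 0.17 in OE hearts, and 15 lower and 0 higher were found at an unadjusted p below 0.05, against 6.14% and 3.76% of all genes. Tnc, which encodes tenascin C, had an interaction that did not pass (-2.91, adjusted p = 0.0640), as had Cilp, a matrix protein of cartilage that activated fibroblasts also make (-2.38, adjusted p = 0.0829). Of basement membrane genes, 0 of 16 tested members passed, with a median interaction of -0.25 and the smallest p for Nid1 (-0.54, adjusted p = 0.236), which encodes nidogen.

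Matrix-cleaving enzymes made up the next group. Ctsk (chr3:95499210-95509387) encodes cathepsin K, a cysteine protease that cleaves fibrillar collagen. It stood at 124, 126, 111 and 129 in WT sham, a narrow range, and at 319, 255, 428 and 395 in WT MI hearts. OE sham hearts held 798, 673, 824 and 735 and OE MI hearts 722, 626, 778 and 661, again with overlap. For Ctsk the MI effect was 1.48 in WT hearts (adjusted p = 0.000112) and -0.12 in OE hearts (adjusted p = 0.779), and the interaction -1.60 (SE 0.19, adjusted p = 0.00410). Ctsk passed without any single one of the 16 libraries. Its interaction was -1.50 without the infarcted libraries with lung reads, which leaves replicate 1 as the only WT MI heart. It was -1.75 without those with thymus reads, which leaves replicate 2, with 3520 reads of Sftpc, as the only OE MI heart.

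Mmp2 (chr8:92827290-92853421), a gelatinase, stood at 1799, 1887, 1933 and 1526 in WT sham and 3823, 3504, 5559.8 and 4136 in WT MI hearts, and at 8734, 8046, 9525 and 11121 in OE sham and 9528, 9571, 8039 and 9433 in OE MI hearts. Adamts12 (chr15:11064773-11349232), a secreted metalloprotease with thrombospondin repeats, stood at 41.3, 44.7, 65.5 and 38.5 and 106, 111, 136 and 125 in the WT groups and 288, 220.3, 333 and 266 and 233, 283, 243 and 269.6 in the OE groups. For both genes the WT groups were apart and the OE groups overlapped. The interaction was -1.26 (SE 0.19, adjusted p = 0.0220) for Mmp2 and -1.43 (SE 0.23, adjusted p = 0.0230) for Adamts12. Pamr1 (chr2:102549939-102643041), which encodes a secreted protein with a peptidase-like domain, stood at 106, 81.7, 126 and 108 in WT sham and 200.05, 236, 323 and 312 in WT MI hearts. OE sham hearts held 789, 684, 709.8 and 694 and OE MI hearts 540.3, 792, 505 and 378. OE MI replicate 2 was the highest and replicate 4 the lowest of the OE hearts, and the interaction was -1.75 (SE 0.28, adjusted p = 0.0230).

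Of matrix proteases and their inhibitors, 3 of 26 tested members passed, with a negative interaction. The median interaction was -0.70, or -0.26 without the infarcted libraries with lung reads. Mmp14, the membrane-bound activator of Mmp2, did not pass (-1.61, adjusted p = 0.0640). Over all 12 genes, WT MI and WT sham hearts did not overlap in 10, against 15.6% of tested genes, and OE MI and OE sham hearts in 3 (Eno2, Ret and Ankrd63), against 5.05%. The interaction uses these same libraries, so nothing is read from these counts.

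**Figure D3:**
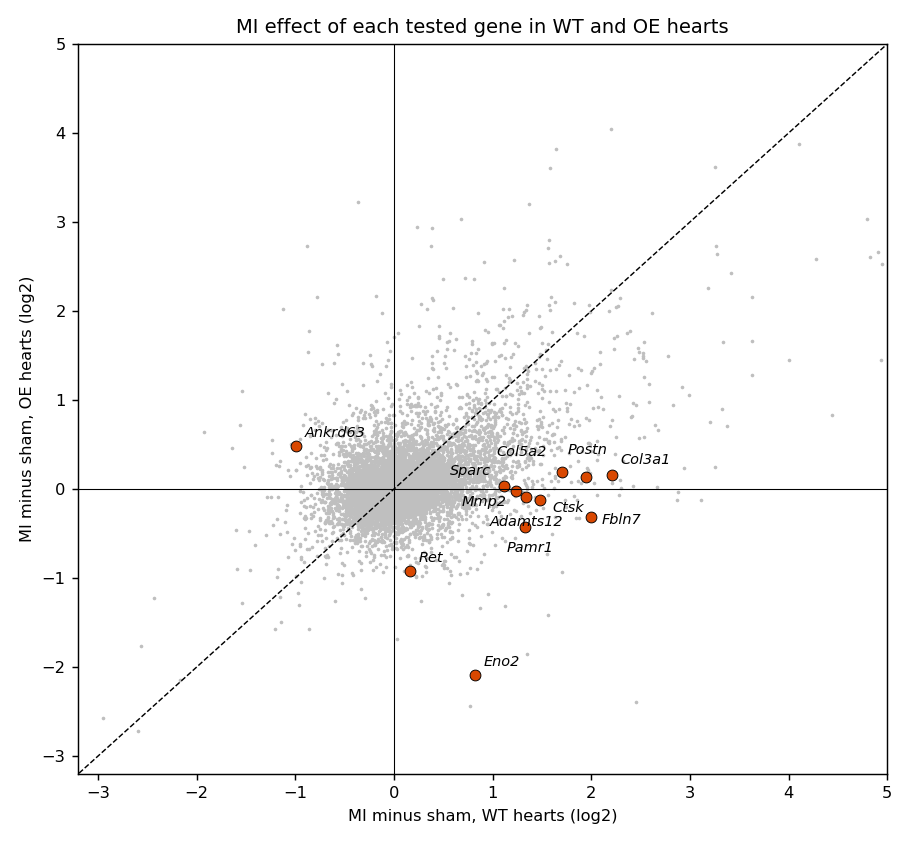
MI effect (log2, infarcted minus sham) in WT hearts on the x axis and in OE hearts on the y axis for each tested gene, with the 12 that passed in orange and 8 genes outside the axes. The dashed line marks equal effects; 9 of the 12 lie between 1 and 2.3 on the x axis and near 0 on the y axis.

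Promoters of the genes that passed were read from RefSeq (GRCm38.p6), which is the mm10 build of the files. The tables held 9 promoters of 8 of the 12 genes, each from 250 bases before to 50 after the start. They were searched on both strands for GGAATG, the core letters bound by TEAD factors, the DNA-binding partners of YAP, since the series title names YAP activation. Fbln7, Col3a1, Eno2 and Ankrd63 each held 1 match. A match was held by 14.7% of all 32851 promoters and by 12.65% of the 13769 promoters of tested genes. None of the 9 held the AP-1 letters TGANTCA, against 7.81% of all promoters and 5.425% of those of tested genes. The motifs do not overlap here. A match describes the letters and is no evidence of binding. The 2 matrix genes with a match are shown for comparison, with the match in capitals, Fbln7 at chr2:128863682-128863981, plus strand and Col3a1 at chr1:45311288-45311587, plus strand.
Fbln7: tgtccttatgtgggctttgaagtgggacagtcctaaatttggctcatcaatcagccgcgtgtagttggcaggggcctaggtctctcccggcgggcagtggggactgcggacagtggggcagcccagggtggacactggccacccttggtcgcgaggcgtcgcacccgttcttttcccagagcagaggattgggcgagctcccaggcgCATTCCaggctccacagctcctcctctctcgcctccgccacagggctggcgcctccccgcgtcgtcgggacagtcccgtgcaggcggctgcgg
Col3a1: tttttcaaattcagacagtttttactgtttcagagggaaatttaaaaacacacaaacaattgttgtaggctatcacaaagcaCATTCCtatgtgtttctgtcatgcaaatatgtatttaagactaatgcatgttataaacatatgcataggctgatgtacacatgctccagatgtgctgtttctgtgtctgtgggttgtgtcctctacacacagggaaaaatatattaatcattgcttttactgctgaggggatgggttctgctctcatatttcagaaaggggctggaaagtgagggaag

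Eno2, Ret and Ankrd63 had other shapes. Eno2 (chr6:124760053-124769673) encodes the gamma form of the glycolytic enzyme enolase, known from neurons. It stood at 51.7, 43.4, 49.4 and 76.99 normalized reads in WT sham and 97.6, 86.6, 75.03 and 134 in WT MI hearts. OE sham hearts held 498, 458, 411 and 448 and OE MI hearts 265, 90.4, 74.1 and 70.5. OE sham hearts stood alone at a high level, and OE MI replicates 2, 3 and 4 were within the WT MI range or just under it. Infarction gave an effect of 0.82 in WT hearts (adjusted p = 0.129) and -2.09 in OE hearts (adjusted p = 0.0736), and the interaction was -2.90 (SE 0.46, adjusted p = 0.0230), the largest in size of the 12. It did not pass without the infarcted libraries with lung reads (-2.56, adjusted p = 0.370). In edgeR the interaction of Eno2 was -2.70, adjusted p = 0.0511. In the authors' deposited table the MI log2 fold change of Eno2 is 0.82 in WT (adjusted p = 0.161) and -1.86 in OE hearts (adjusted p = 0.000155).

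Ret (chr6:118151748-118197744), the receptor tyrosine kinase for ligands of the GDNF family, stood at 186, 175, 172 and 168 in WT sham and 187, 183, 251 and 171 in WT MI hearts. It stood at 144, 129.99, 163 and 128 in OE sham and 70.2, 81.1, 64.8 and 80.2 in OE MI hearts, which lay below all other libraries. The effect of MI was 0.16 in WT hearts (adjusted p = 0.441) and -0.92 in OE hearts (adjusted p = 0.0259), and the interaction -1.08 (SE 0.18, adjusted p = 0.0261). Ret was the 1 gene that passed for MI in OE hearts. Schwann cell markers, as Ret is known from nerve, had a median interaction of 0.07 with 0 of 11 tested members passing, the smallest p being that of Pmp22, a myelin protein (-0.39, adjusted p = 0.597).

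Ankrd63 (chr2:118699103-118703963), an ankyrin repeat gene, was lowly expressed and had the 1 positive interaction. It stood at 63.3, 76.6, 58.6 and 99.4 in WT sham and 31.3, 38.4, 40.2 and 34.8 in WT MI hearts, without overlap. In OE sham hearts it stood at 34.9, 26.7, 35.2 and 40.7 and in OE MI hearts at 45.5, 45.2, 49.99 and 51.1, with the infarcted hearts higher and no overlap. The effect of MI was -1.0 in WT hearts (adjusted p = 0.00516) and 0.48 in OE hearts (adjusted p = 0.422), and the interaction 1.48 (SE 0.25, adjusted p = 0.0290).

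**Figure D4:**
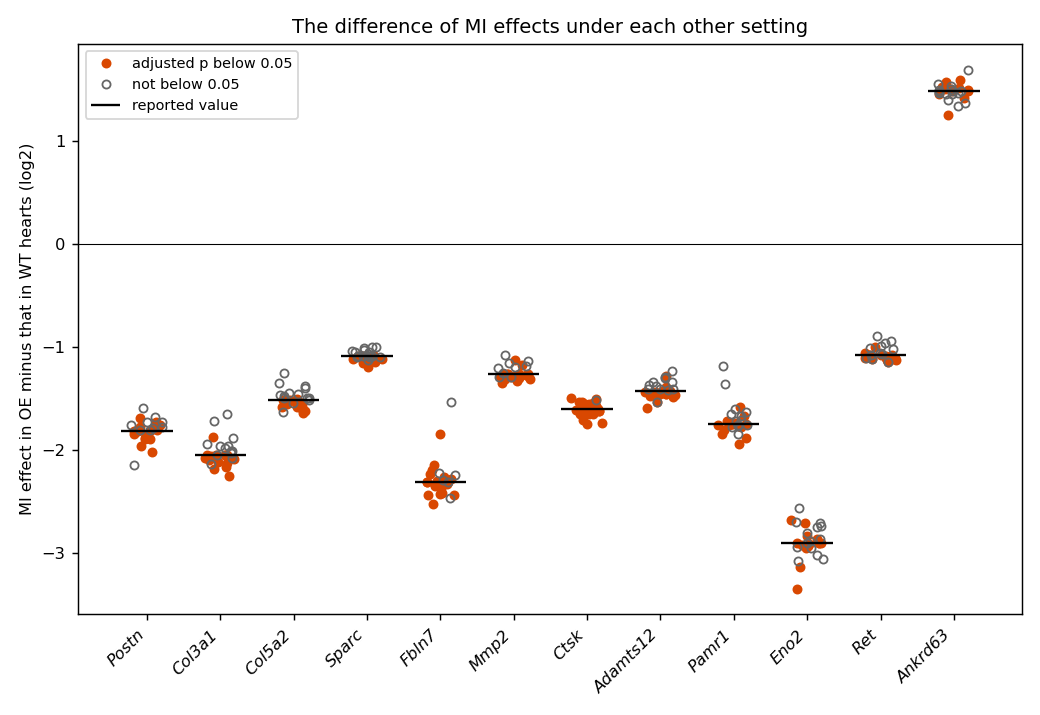
Interaction (log2) of the 12 genes under each other log2 setting, 1 point per setting, filled where the adjusted p was below 0.05. The black line is the reported value; all points lie on its side of 0, and Ctsk has the most filled points.

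Across all genes, infarction changed WT hearts in 1008 genes (7.05%), 709 higher (4.96%) and 299 lower (2.09%), and OE hearts in Ret alone (0.00699%). Without adjustment 1448 genes (10.1%) had p below 0.05 for MI in OE hearts, 659 higher (4.61%) and 789 lower (5.52%), DESeq2 passed 78 and edgeR 1. In WT hearts the count was 604, 276 and 464 without WT sham replicates 1, 2 and 4, and 1871, 572, 299 and 556 without WT MI replicates 1, 2, 3 and 4. In OE hearts it was 0 without WT sham replicate 1, 2, 3 or 4, WT MI replicate 1, OE sham replicate 1, 2 or 3 or OE MI replicate 3. It was 10 without OE MI replicate 2, 3 without OE sham replicate 4, and 2 without WT MI replicate 2 or OE MI replicate 4. Without the infarcted libraries with lung reads, which leaves 1 WT MI and 2 OE MI hearts, 5 genes passed in WT and 39 in OE hearts. With lung and thymus terms 36 and 0 passed. A count in one genotype and not the other is no test of the difference, which the interaction gives. The 709 genes that rose in WT hearts had a median MI effect of 0.81 there and of 0.16 in OE hearts. These genes, and the 299 that fell, were chosen by their WT effect, which enlarges the WT median and not the OE median. A gap between the medians was therefore partly set in advance, and nothing is read from its size. The OE libraries entered the fit that chose the genes, through the shared spread and the filter. In OE hearts 81.8% of the 709 had a positive MI effect, against 46.9% of all tested genes. The 299 that fell in WT hearts had medians of -0.32 and -0.09, with 83.3% below 0 in OE hearts against 53.1% of all genes. In the OE libraries without lung reads the shares were 81.7% (48.3% of all genes) for the 709 and 79.9% (51.7%) for the 299.

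**Figure D5:**
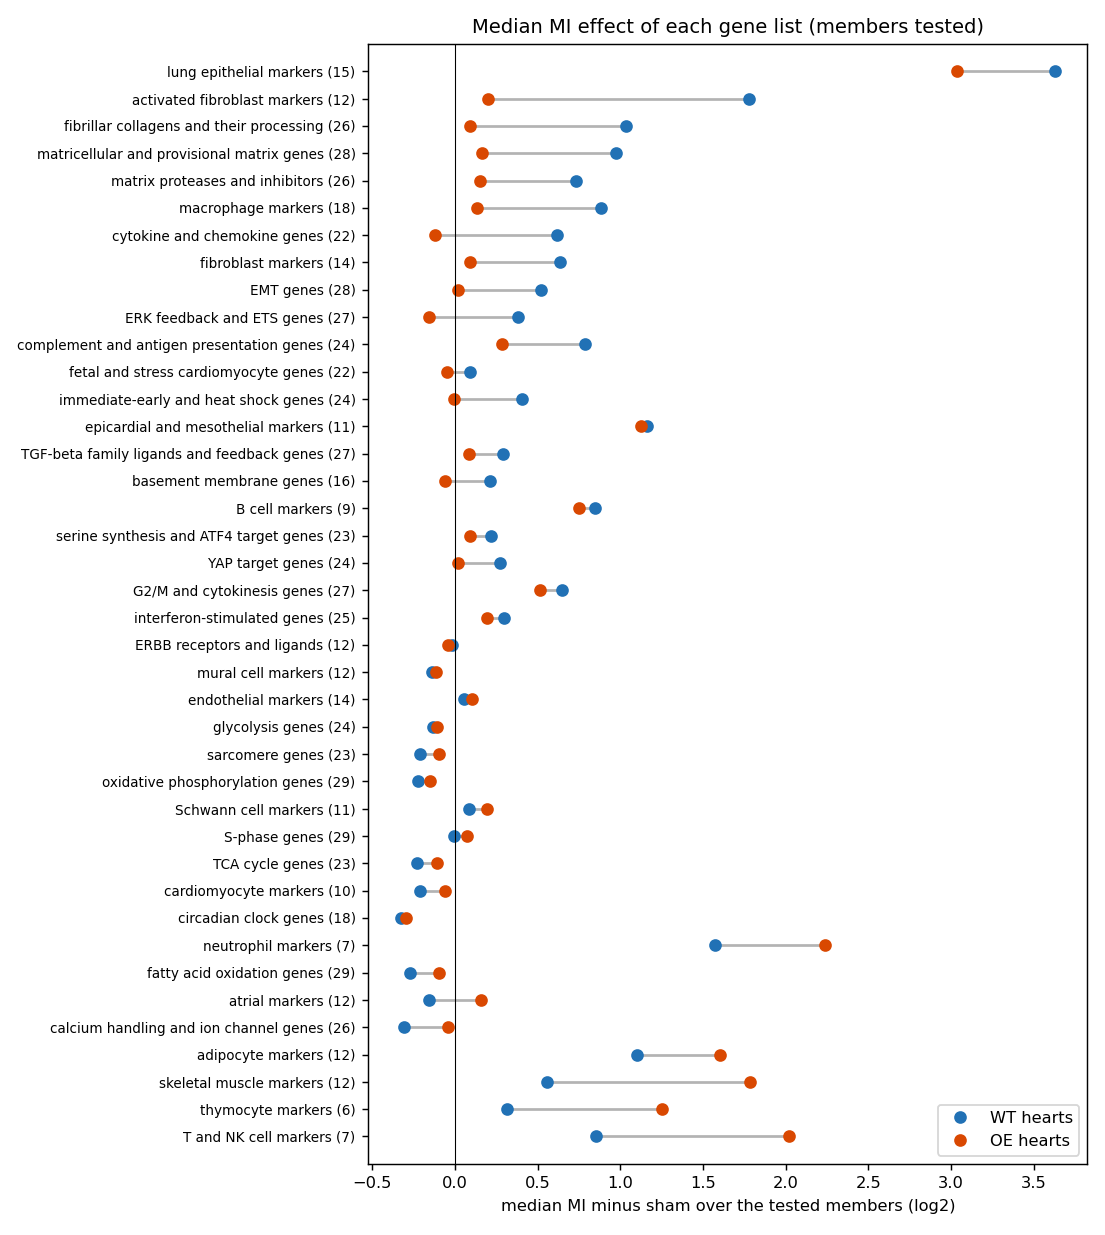
Median MI effect (log2, infarcted minus sham) over the tested members of each gene list, in WT (blue) and OE hearts (orange), ordered by the median interaction with the most negative on top. The collagen, matricellular, matrix protease, fibroblast and macrophage lists have WT medians well above 0 and OE medians near 0. The basement membrane list has a WT median of 0.21. The oxidative phosphorylation, TCA cycle and fatty acid oxidation lists lie just under 0 in both.

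Fibroblast marker lists had negative median interactions but share members with the matrix lists above: 9 of 12 activated and 6 of 14 general markers. The median interaction of the other 3 activated markers (Ddah1, Acta2 and Meox1) was -0.18 and that of the other 8 general markers -0.35. Of activated fibroblast markers, 1 of 12 tested members passed, with a negative interaction, with median MI effects of 1.78 in WT and 0.20 in OE hearts. The list summed to 7157 to 10966 normalized reads in WT sham, 18369 to 33998 in WT MI, 34550.5 to 54122 in OE sham and 43959.9 to 57257 in OE MI hearts. WT MI replicate 1, with 3 reads of Sftpc, held 18369 and lay above all WT sham hearts. General fibroblast markers had 1 of 14 tested members passing, with a negative interaction, with a median interaction of -0.57. The part of fibroblast number in the matrix results was not tested.

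EMT genes, named for the epithelial-to-mesenchymal transition, had 1 of 28 tested members passing, with a negative interaction, with Mmp2 as the 1 that passed and median MI effects of 0.52 in WT and 0.02 in OE hearts. Vim, the mesenchymal intermediate filament, had an interaction of -0.44 (SE 0.15, adjusted p = 0.314). It stood at 6361 ± 414 in WT sham, 9928 ± 803 in WT MI, 11093 ± 592 in OE sham and 12893 ± 2177 in OE MI hearts (mean ± SD, n = 4). Of TGF-beta family ligands and feedback genes, 0 of 27 tested members passed, and the smallest p was that of Ltbp3, a latent TGF-beta binding protein (-0.66, adjusted p = 0.0640). DESeq2 passed 5 of the 27, all negative, against 123 negative and 26 positive of all 14298 genes. The median interaction of the TGF-beta list, -0.25, was 0.03 without the infarcted libraries with lung reads.

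YAP target genes had 0 of 24 tested members passing, with a median interaction of -0.14 and the smallest p for Tgfb2 (-0.90, adjusted p = 0.253), a TGF-beta ligand, which passed in DESeq2 (-0.95, adjusted p = 0.0436). The list's median was -0.03 without the infarcted libraries with lung reads and -0.29 with lung and thymus terms. Ctgf, a matricellular YAP target, stood at 1924, 1792, 2086 and 1463 in WT sham and 3799.7, 7067, 7709.6 and 1909.6 in WT MI hearts. In OE sham hearts Ctgf stood at 17531, 15919.9, 13881 and 7293 and in OE MI hearts at 20446, 6534, 14325 and 13319.8. WT MI replicate 4 lay within the WT sham range and OE MI replicate 2 below all OE sham hearts, so both pairs overlapped, and the interaction was -1.34 (SE 0.58, adjusted p = 0.459). Cyr61, a relative of Ctgf, had an interaction of -0.77 (SE 0.54, adjusted p = 0.670), and Ankrd1, a stress-responsive sarcomeric and nuclear protein, one of -0.43 (SE 0.48, adjusted p = 0.814).

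In limma no listed gene downstream of receptor signalling passed. Of ERK feedback and ETS genes, 0 of 27 tested members passed, and 24 of 27 were below 0, against 6977 of all 14298 genes. The median MI effect was 0.38 in WT and -0.15 in OE hearts. Spred1, an inhibitor of RAS-to-ERK signalling, had the smallest p (-0.67, adjusted p = 0.0829). In DESeq2 both Spred1 (-0.67, adjusted p = 0.00146) and Phlda1 (-1.49, adjusted p = 0.000461), a pleckstrin-like protein, passed. Without the infarcted libraries with lung reads the list's median interaction of -0.49 was -0.12, and without those with thymus reads -0.89. ERBB receptors and ligands had 0 of 12 tested members passing, with the smallest p for Egfr (-0.88, adjusted p = 0.291), the EGF receptor. The list of immediate-early transcription factors and heat shock proteins had 0 of 24 tested members passing and had the smallest p for Hspb1 (-0.66, adjusted p = 0.393), a small heat shock protein. Their median of -0.39 turned to 0.15 without the infarcted libraries with lung reads.

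In limma no immune gene in the lists passed, and their medians differed in sign. Macrophage markers had 0 of 18 tested members passing, with 17 of 18 below 0 against 6977 of all 14298 genes, and median MI effects of 0.88 in WT and 0.14 in OE hearts. The list summed to 6758 to 8749.6 in WT sham, 11127 to 22172 in WT MI, 8974 to 11949 in OE sham and 9429.6 to 16930.3 in OE MI hearts. Ccr2, the chemokine receptor of recruited monocytes, had the smallest p (-1.64, adjusted p = 0.352). Cytokine and chemokine genes had 0 of 22 tested members passing with a median interaction of -0.65 and the smallest p for Cx3cl1 (-0.61, adjusted p = 0.253), a membrane-bound chemokine. Complement and antigen presentation genes had 0 of 24 tested members passing, median -0.42, with the smallest p for C1ra (-0.99, adjusted p = 0.278), a complement protease. Interferon-stimulated genes had a median of -0.08 and had 0 of 25 tested members passing, with the smallest p for Bst2 (-0.49, adjusted p = 0.477), a tether of budding viruses. Over the alternatives the interferon median ran from -0.22 to 0.06, the complement median from -0.60 to -0.13 and that of macrophage markers from -0.88 to -0.46.

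T and NK cell markers had a positive median interaction of 1.68, with 0 of 7 tested members passing and the smallest p for Cd247 (2.36, adjusted p = 0.253), the zeta chain of the T cell receptor complex. Thymocyte markers had a median of 1.31 and the smallest p for Satb1 (1.05, adjusted p = 0.0640), a chromatin organizer of thymocytes. Only 7 of the 14 T and NK markers found and 6 of 14 thymocyte markers met the minimum for testing. The T and NK list summed to 880, 141, 1240 and 532 in OE MI replicates 1 to 4 and to at most 161 in WT MI hearts. Members high in OE MI hearts meet the minimum more easily, so nothing is read from the sign of these medians. DESeq2 passed Cd247 (2.69, adjusted p = 0.0464) and Lck (2.99, adjusted p = 0.0464), a T cell kinase, of the first list, and Satb1 (1.09, adjusted p = 0.000292) and Tcf7 (2.94, adjusted p = 0.0387), a T cell transcription factor, of the second. Without the OE MI libraries that held Rag1 reads, which leaves replicate 2 as the only OE MI heart, these medians were -0.23 and 0.53. Lung epithelial markers had median MI effects of 3.63 in WT and 3.04 in OE hearts, with 0 of 15 tested members passing for the interaction.

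Neither limma nor DESeq2 passed a cardiomyocyte, sarcomere or ion channel gene of the lists. Natriuretic peptide Nppb, a marker of ventricular load, stood at 1105, 1039, 4098 and 3872 in WT sham and 3416, 3393, 4869 and 5038 in WT MI hearts, and at 20853, 18996, 22655 and 14108 in OE sham and 12484, 8561, 16804 and 18219 in OE MI hearts. WT sham replicates 3 and 4 were within the WT MI range, and the interaction was -1.48 (SE 0.56, adjusted p = 0.392). The interaction was -0.39 (SE 0.47, adjusted p = 0.832) for Nppa, the atrial peptide, but 0.39 without the infarcted libraries with lung reads. It was -0.70 (SE 0.78, adjusted p = 0.815) for Acta1, skeletal actin. For the myosin heavy chains it was -0.61 (SE 0.46, adjusted p = 0.699) in fetal Myh7 and 0.03 (SE 0.23, adjusted p = 0.978) in adult Myh6, whose value ran from -0.07 to 0.35 over the alternatives. Fetal and stress cardiomyocyte genes had 0 of 22 tested members passing with a median of -0.41 and the smallest p for Runx1 (-1.39, adjusted p = 0.266), a transcription factor of dedifferentiating cardiomyocytes. Over the alternatives this median ran from -0.59 to -0.20. Sarcomere genes had 0 of 23 tested members passing, median 0.06. Calcium handling and ion channel genes had 0 of 26 tested members passing, median 0.26, with the smallest p for Kcnh2 (0.71, adjusted p = 0.253), a potassium channel. The sarcomere median ran from -0.01 to 0.17 and that of calcium handling and ion channel genes from 0.16 to 0.64.

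In limma no metabolic gene in the lists passed. Eno2, the enolase gene that passed with an interaction of -2.90, is in none of these metabolic lists. Of oxidative phosphorylation genes, 0 of 29 tested members passed, with median MI effects of -0.22 in WT and -0.15 in OE hearts. TCA cycle genes had 0 of 23 tested members passing, with medians of -0.23 in WT and -0.11 in OE hearts, and fatty acid oxidation genes 0 of 29 tested members passing, with -0.27 in WT and -0.10 in OE hearts. Glycolysis genes had a median interaction of 0.04 and serine synthesis and ATF4 target genes one of -0.19, with 0 members passing in each. In DESeq2 Nupr1, a stress-induced chromatin protein of the ATF4 list, passed (-1.30, adjusted p = 0.0437). At an unadjusted p below 0.05 the lists of oxidative phosphorylation, TCA cycle and fatty acid oxidation held 0 members for the interaction, against 9.9% of all genes. In that order, 23 of 29, 23 of 23 and 25 of 29 members had an interaction above 0, against 7321 of all 14298 genes. The median interaction ran over the 28 alternatives from -0.06 to 0.13 for oxidative phosphorylation, 0.04 to 0.22 for the TCA cycle and 0.06 to 0.35 for fatty acid oxidation.

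Neither limma nor DESeq2 passed a cell-cycle gene of the lists. G2/M and cytokinesis genes had 0 of 27 tested members passing, with median MI effects of 0.65 in WT and 0.51 in OE hearts and 0 lower and 0 higher at an unadjusted p below 0.05. The smallest p was that of Cenpf, a kinetochore protein (0.76, adjusted p = 0.569). Their median interaction of -0.11 was -0.67 with lung and thymus terms in the fit and 0.11 without the infarcted libraries with lung reads. S-phase genes had 0 of 29 tested members passing, with a median interaction of 0.10 and the smallest p for Tyms (-0.60, adjusted p = 0.448), which makes thymidylate. This median was -0.10 with lung and thymus terms and -0.06 without the infarcted libraries with thymus reads. Scaling to library totals in place of the authors' factors left the sign of the median of each list above as it was.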

How the data were processed

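Polyadenylated RNA of 16 mouse hearts was sequenced. Per the series design text and the submitters' processing notes, reads were trimmed with cutadapt, subsampled, aligned to mm10 with TopHat 2.0.10 and counted over RefSeq genes with HTSeq, and tested with DESeq2 1.6.3. The authors deposited 1 column of signal values per sample, headed as normalized counts, in which each gene's count had been divided by a factor for its library. The authors' deposited table also gives log2 fold changes and adjusted p-values for pairs of groups, per the file headers, and none for the interaction.

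Here, limma 3.58.1 (R 4.3.3) with a trended variance was fitted to log2(value + 1) with 1 mean per group, and Benjamini-Hochberg adjustment covered the 14298 genes tested. SE is limma's moderated standard error. In each column the smallest value above 0 was taken as 1 read, which made 100% of values above 0 whole within 0.001. These whole reads served edgeR 4.0.16 (11 genes passed), DESeq2 1.42.0 (149) and library totals, as alternatives. The p-values computed here cover the spread between these animals only. With counting not stated to use strand, overlapping genes cannot be told apart.

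Gene groups were 41 lists of 10 to 29 members. They, the named genes and the tests were chosen with earlier results of these data known. Named were a panel of 12 (Acta1, Ankrd1, Col1a1, Ctgf, Cyr61, Erbb2, Myh6, Myh7, Nppa, Nppb, Postn and Vim), the 8 largest positive and negative interactions that passed with a group mean of 100 or more, and in each list up to 4 members that passed or, with none, the one with the smallest p. No positive one met the minimum. Ankrd63, Ret, Tnc, Cilp, Mmp14, the motifs and the genes of the closing section were chosen after their values were seen.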

Additional observations from a re-analysis of the deposited data

Results flagged for a closer look

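For 12 genes the MI effect differed between OE and WT hearts by a test of the difference itself, the interaction in limma at an adjusted p below 0.05. The difference, OE minus WT on the log2 scale, was -1.81 for Postn, -2.05 for Col3a1, -1.51 for Col5a2 and -1.09 for Sparc. It was -2.31 for Fbln7, -1.26 for Mmp2, -1.60 for Ctsk, -1.43 for Adamts12 and -1.75 for Pamr1. It was -2.90 for Eno2, -1.08 for Ret and 1.48 for Ankrd63.

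Single hearts stood far from the other 3 of their group, by Dixon's test on log2 values, in 5 of 92 sets of 1 gene in 1 group. Chance alone flags about 1 in 20 such groups. Cyr61 was low in OE MI replicate 2 (907 normalized reads), Myh7 in WT sham replicate 4 (4259) and Mmp2 in OE MI replicate 3 (8039). OE sham replicate 4 was low in both Col1a1 (15086) and Col5a2 (4409). Without that library the interaction of Col5a2 passed with adjusted p = 0.0287. Without OE MI replicate 3, Mmp2 had adjusted p = 0.0592.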

How the results depend on the processing

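The 12 interactions kept their sign in all 29 other settings. The count of genes that passed stayed within 1.5 times of 12 on library totals, with pseudocounts of 0.5 and 10, with no filter, with a minimum of 50 and in edgeR. It was 149 in DESeq2, 1 on the unlogged scale, 20 with the replicate block and 2 without the infarcted libraries with lung reads. It was 31 without those with thymus reads, a setting chosen after seeing the data, and 0 for RA 1 to 12 alone, where 1417 genes had an unadjusted p below 0.05. With lung and thymus terms 11 passed, 9 positive and 2 negative, of which 1, Ctsk, was among the 12. RA numbers stand in the sample descriptions with no stated meaning, and in RA 1 to 12 Ctsk had an interaction of -1.51, adjusted p = 0.0595 and Postn -1.73, adjusted p = 0.0644. This subset, and those without lung or thymus libraries, hold fewer libraries. Without lung libraries 1 WT MI heart remains, and without thymus libraries, a setting chosen after seeing the data, 1 OE MI heart. Such a heart is assumed to vary like the other groups, and interaction calls of these fits are not counted here. Without lung libraries Postn had an interaction of -2.15, and without thymus libraries -1.59. With lung and thymus terms Postn had -1.68, adjusted p = 0.0803.

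Leaving out 1 library gave 1 to 52 genes for the interaction, 276 to 1871 for MI in WT hearts and 0 to 10 for MI in OE hearts. Ctsk passed in all 16 such fits. Fbln7 was lost without OE sham replicate 1 (adjusted p = 0.0537) or 3 (0.0552). Postn passed in 10, Mmp2 in 11, Adamts12 and Ret in 8, Col3a1 and Pamr1 in 7, Eno2, Col5a2 and Ankrd63 in 6 and Sparc in 5, with adjusted p at most 0.0956. All 12 passed without WT sham replicate 3, WT MI replicate 1 or 2, OE sham replicate 4 or OE MI replicate 1. Col1a1 passed in DESeq2 (-1.92, adjusted p = 0.000167).

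MI in WT hearts passed 1008 genes, but 1732 in DESeq2, 36 with lung and thymus terms, 5 without lung libraries and 112 for RA 1 to 12. MI in OE hearts passed 1 gene, but 78 in DESeq2, 4 on the unlogged scale, 39 without lung libraries and 4 without thymus libraries. It passed 0 for RA 1 to 12, with the replicate block and with terms for lung and thymus. The cause was not tested. With a minimum of 50 no T or NK cell marker was left, so that list has no median there. Hearts share replicate numbers across groups. Correlations of the deviations of same-numbered hearts ran from -0.34 to 0.27 over 24 pairs, with no common sign. With so few hearts these values cannot exclude a pairing by number. The replicate block is given as a value beside the others, with 20 genes for the interaction and 703 for MI in WT hearts. All 12 genes passed under it.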

Other observations

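Just outside the threshold, the next 20 genes by p included more matrix genes. Col6a1 (-1.06, adjusted p = 0.0640) and Col6a3 (-1.22, adjusted p = 0.0640), chains of type VI collagen, were among them, as was Mfap4 (-1.72, adjusted p = 0.0640), a microfibril-associated protein. Serpinf1 (-1.09, adjusted p = 0.0640), which encodes a secreted antiangiogenic serpin, and Itm2a (-0.85, adjusted p = 0.0549), a membrane protein, came next to the threshold. Positive values were found for Adra1b (0.94, adjusted p = 0.0640), the alpha-1B adrenergic receptor. DESeq2 on the recovered reads passed 123 negative and 26 positive of all 14298 genes. Of the fibrillar collagen list it passed 12 negative and 0 positive of 26 tested members. It passed 9 and 0 of 28 in the matricellular list and 5 and 0 of 26 in the matrix protease list. It passed 5 negative members of the TGF-beta list (Tgfb2, Tgfb3, Ltbp2, Ltbp3 and Fstl1) and 0 of the sarcomere, oxidative phosphorylation and G2/M lists.

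Other lists are given by values alone. The median interaction was 0.02 for endothelial markers, -0.02 for mural cells, 0.16 for circadian clock genes and -0.30 for epicardial and mesothelial markers. It was 0.16 for neutrophil, -0.23 for B cell, 0.41 for adipocyte, 0.25 for atrial and 1.22 for skeletal muscle markers, and 0.96 for the 2 tested erythroid markers. None of their members passed in limma, and DESeq2 passed Cldn5 and Aldh1a2. Over the alternatives the skeletal muscle median ran from -0.87 to 2.64, the atrial from -0.09 to 1.28, the neutrophil from -0.57 to 1.71, the B cell from -0.65 to 0.36, the adipocyte from -0.14 to 1.29 and the epicardial and mesothelial from -0.53 to 0.68. The mural median ran from -0.08 to 0.03 and the clock median from 0.01 to 0.47, and without the infarcted libraries with lung reads the skeletal muscle median was -0.87 and the atrial 1.28. On library totals the endothelial median was -0.0061.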
